A study of Mus musculus with 10 samples.

Results

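The genes described here are the S phase and mitosis genes of the cell cycle, compared across 10 arrays of mouse fibroblasts that differed in the Mediator subunit Med23, in serum and in the SRF coactivator MAL. The list held 35 genes, 14 that act in DNA replication and 21 that act in mitosis, grouped by the known role of each protein. Among the probe sets that carry a member's symbol alone, the one with the highest mean over the 10 arrays stood for that gene. This gave 34 members of 18193 named genes, 14 for replication and 20 for mitosis. Ccnb1 had no probe set with a single symbol and was not analysed here.

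Total RNA had been measured on Affymetrix arrays, 1 array for each condition. Mouse embryonic fibroblasts (MEFs) of wild type (WT) or lacking Med23 (Med23KO, here KO) filled 6 arrays, each genotype at 3 times of serum (0, 30 and 90 min, where 0 min is no serum). The MEFs had been isolated from 9.5-day embryos and had immortalized themselves in culture, and the number of lines or clones behind each genotype is not stated. The effect of the knockout and any difference between the cultured lines therefore cannot be told apart. The 4 arrays of 10T1/2 cells, an established line of mouse embryonic fibroblasts, held an untreated control, MAL overexpression, Med23 knockdown, and both treatments together. All cells were kept in medium with 10% FBS in 5% CO2, and how long the MEFs had been without serum before the 0 min array was not given in the sources used here. With 1 array per condition, the spread between replicate cultures was not measured, and the tests below used pairs of arrays that differ in 1 factor as replicates of that factor.

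Replication genes and mitosis genes are switched on in successive waves of the cell cycle. Late in G1, E2F factors activate genes for the MCM helicase, which unwinds DNA, for its loading factor Cdc6, for the sliding clamp Pcna and for the enzymes that make deoxynucleotides. Genes of mitosis are kept silent in resting and G1 cells by the DREAM complex, which binds a CHR element near the start site, and are activated later by B-Myb and FoxM1, with NF-Y on CCAAT boxes.

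The promoters of the members were searched for the letters of these elements. RefSeq promoter windows on GRCm38.p6, 250 bases before to 50 after the start, were found for 28 of the 34 members, 12 of replication and 16 of mitosis. Mcm4, Ccne2, Ccna2, Aurkb, Kif20a and Tpx2 had none. The letters searched on both strands were TTTGGCGC, TTTCCCGC, TTTCGCGC or TTTGCCGC for E2F, TTTGAA for the CHR and CCAAT for the CCAAT box. Both promoters below from replication genes hold E2F letters and no CHR, and both from mitosis genes hold 2 CHR matches and 3 CCAAT boxes, with every match in capitals. Cdc6 lies at chr11:98907901-98908200 on the plus strand, and the others on the minus strand: Mcm3 at chr1:20820263-20820562, Ccnb2 at chr9:70421505-70421804 and Cdk1 at chr10:69352863-69353162.
Cdc6: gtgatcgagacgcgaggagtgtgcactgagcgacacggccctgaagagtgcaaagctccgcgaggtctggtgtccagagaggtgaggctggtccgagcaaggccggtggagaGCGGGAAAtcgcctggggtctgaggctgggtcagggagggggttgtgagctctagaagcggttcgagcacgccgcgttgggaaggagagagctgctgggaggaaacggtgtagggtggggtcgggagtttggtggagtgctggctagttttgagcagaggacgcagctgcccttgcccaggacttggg
Mcm3: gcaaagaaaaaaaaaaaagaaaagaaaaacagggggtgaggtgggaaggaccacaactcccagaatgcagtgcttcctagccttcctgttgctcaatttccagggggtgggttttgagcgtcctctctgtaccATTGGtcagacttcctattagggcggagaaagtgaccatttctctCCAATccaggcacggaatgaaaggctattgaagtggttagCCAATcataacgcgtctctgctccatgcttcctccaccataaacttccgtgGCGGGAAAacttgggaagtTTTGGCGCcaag
Ccnb2: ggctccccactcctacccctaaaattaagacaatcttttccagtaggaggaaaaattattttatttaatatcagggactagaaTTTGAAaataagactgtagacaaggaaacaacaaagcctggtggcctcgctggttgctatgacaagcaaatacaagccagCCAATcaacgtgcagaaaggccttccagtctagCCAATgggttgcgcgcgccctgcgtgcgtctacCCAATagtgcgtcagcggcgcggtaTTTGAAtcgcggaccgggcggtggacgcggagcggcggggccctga
Cdk1: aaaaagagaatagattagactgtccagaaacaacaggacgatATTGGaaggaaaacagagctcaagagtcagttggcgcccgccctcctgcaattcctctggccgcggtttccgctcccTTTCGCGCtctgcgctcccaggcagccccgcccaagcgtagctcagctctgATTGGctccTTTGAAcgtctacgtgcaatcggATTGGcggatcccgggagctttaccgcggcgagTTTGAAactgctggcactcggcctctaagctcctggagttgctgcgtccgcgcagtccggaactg

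Members were counted by gene, with a match in any window of the gene, while all windows were counted singly. Mcm7 had 1 window with E2F letters and 1 without. E2F letters were found for 5 of 12 replication members (41.7%), Cdc6, Mcm3, Mcm5, Mcm6 and Mcm7, and for 1 of 16 mitosis members (6.25%), Cdk1. They were in 2.26% of all 32851 windows. The CHR letters were found for 1 of 12 replication members (8.33%) and 13 of 16 mitosis members (81.2%), against 17.9% of all windows. Birc5, Bub1 and Cenpe were the mitosis members whose windows did not hold these letters. CCAAT boxes were common in both groups, for 8 of 12 (66.7%) and 15 of 16 members (93.8%), against 37.4% of all windows. A CHR together with a CCAAT box was found for 13 of 16 mitosis members, 1 of 12 replication members and 6.95% of all windows. The CHR letters were also counted within 50 bases of the start, a distance chosen after the positions were seen. There they were found for 12 of 16 mitosis members (75.0%), 0 of 12 replication members and 4.94% of all windows. A match of letters is a description of the window and was not tested as a binding site.

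The deposited values were log2 levels, so a difference of 1 is 2-fold. A level under the array median over all probe sets (3.86 to 3.93 in MEFs, 3.64 to 3.70 in 10T1/2 cells) was taken as open, since no detection calls were used here. Med23 itself stood at 7.14, 7.39 and 6.90 on the WT arrays of 0, 30 and 90 min. On the KO arrays it stood at 3.30, 3.30 and 2.91, which is under the medians. In 10T1/2 cells Med23 was at 5.45 in the control, 5.67 with MAL, 4.24 with knockdown and 3.94 with both. The fibroblast genes Vim (13.50 to 13.99 over the 10 arrays), Col1a1 and Col3a1 were high on every array, while Thy1 was below the median on the 6 MEF arrays and Lum on 8 arrays. Ptprc, Adgre1 and Itgam of macrophages, Pecam1, Cdh5 and Tek of endothelium, and Cdh1, Krt8, Krt18 and Krt19 of epithelium were below the median on all 10 arrays. Other markers of these lists were not, with Csf1r at 4.26 to 4.95, Epcam at 4.60 to 6.41 and Cd14 at 6.13 to 9.28 over the 10 arrays, and Kdr below the median on 1 array. Some markers of these lists moved with the knockout. Of 6 macrophage markers 3 were tested and 2 fell. Cd14 fell by 2.68 on the log2 scale, while all 3 KO levels of Cd68 were below the medians, and with these raised to the medians its difference was -0.34. For macrophage markers the summed linear level was 350 to 691 in WT and 125 to 132 in KO MEFs. These sums follow Cd14, the highest of the markers on each MEF array, at 8.13 to 9.28 in WT and 6.13 to 6.25 in KO. Csf1r, also tested, was at 4.26 to 4.58 in WT and 4.31 to 4.60 in KO MEFs. Of 5 endothelial markers 2 were tested and Emcn rose. Its 3 WT levels were below the medians, and with these raised the difference was 1.29. Endothelial markers had summed levels of 47.4 to 51.2 in WT and 68.5 to 82.8 in KO MEFs. These sums follow Emcn, at 2.73 to 3.10 in WT and 4.95 to 5.38 in KO. Kdr, also tested, was at 3.91 to 4.04 in WT and 3.74 to 4.07 in KO MEFs. Of 10 fibroblast markers 8 were tested, 1 rose (Col1a2, by 3.89) and 4 fell. The part of these differences in the results below was not tested.

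In knockout MEFs, of the 13 replication members tested, 5 fell (Mcm3, Pcna, Mcm7, Tyms and Mcm2) and 1 rose (Rrm2). Of the 20 mitosis members, 7 rose (Ccnb2, Cenpe, Kif20a, Cenpf, Cdc20, Kif11 and Bub1b) and 1 fell (Top2a). The fit was limma over the 6 MEF arrays with genotype and serum time as terms, and p-values were adjusted by Benjamini-Hochberg over all 11933 genes tested. It called 14 of the 33 members, against 42.1% of all genes, so the number called is near the background, and the description rests on how the 2 roles divided. The background in each direction was 21.2% of genes higher and 20.8% lower. The median difference, KO minus WT, was -0.46 for replication members (12 negative and 1 positive), 0.34 for mitosis members (16 positive and 4 negative) and -0.02 for all genes. Ccne2, a cyclin that starts S phase, did not pass the filter on low levels in MEFs, at 3.67 or less in WT and 3.54 or less in KO. In bulk RNA, fewer cells in a phase of the cycle and less RNA per cell cannot be told apart.

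Among helicase subunits, Mcm3 was at 6.63, 6.56 and 5.59 in WT MEFs, in the order of 0, 30 and 90 min of serum that is used throughout, and at 5.37, 5.56 and 4.99 in KO MEFs. Each KO array was below each WT array for Mcm3, and the difference was -0.95 (SE 0.16, adjusted p = 0.00514), or 1.94-fold lower. Mcm7 was at 9.82, 9.53 and 9.15 in WT and 9.06, 8.73 and 8.08 in KO MEFs. The groups did not overlap for Mcm7 either, with a difference of -0.88 (SE 0.13, adjusted p = 0.00323). All 4 probe sets of Mcm7 were lower in KO MEFs, by differences of -0.88, -0.57, -0.56 and -0.74. Mcm2 stood at 8.43, 8.01 and 7.89 in WT and 7.61, 7.62 and 7.53 in KO MEFs, a difference of -0.52 (SE 0.15, adjusted p = 0.0305). The remaining subunits did not pass the test, at -0.25 for Mcm4, -0.25 for Mcm5 and -0.24 for Mcm6. For Mcm4 and Mcm5 the KO array was lower at 0 and 30 min and higher at 90 min.

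Pcna, the clamp that holds DNA polymerase on its template, was at 11.16, 11.32 and 11.73 in WT and at 9.88, 10.70 and 10.97 in KO MEFs. All KO values lay below all WT values, with a difference of -0.89 (SE 0.17, adjusted p = 0.00725), 1.85-fold lower. Tyms, which makes thymidylate, was at 3.53, 3.89 and 5.52 in WT and 2.86, 3.54 and 4.02 in KO MEFs. Its difference was -0.84 (SE 0.23, adjusted p = 0.0279), but 3 of the 6 levels were below the array medians, and with these raised to the medians it was -0.52, at least 1.43-fold lower. The raised pairs were at -0.02, -0.03 and -1.50, so the difference of Tyms came from the 90 min arrays. The initiation factor Cdc6 stood at 4.14 in WT cells at 0 min and at 2.86 to 3.02 in KO cells, with 5 of 6 levels below the medians and an adjusted p of 0.0588. Thymidine kinase, Tk1, was lower by 0.88 and 0.56 at 0 and 30 min and higher by 0.05 at 90 min in KO MEFs, with an adjusted p of 0.106.

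Of ribonucleotide reductase, which makes deoxynucleotides, the members were Rrm1 and Rrm2, and only Rrm2 passed the test. The large subunit Rrm1 was at 8.85, 8.75 and 8.79 in WT and 8.52, 8.50 and 8.52 in KO MEFs. The groups did not overlap, but the difference of -0.28 (SE 0.12) did not pass (adjusted p = 0.107). Another probe set of Rrm1 was at 9.46, 9.28 and 9.12 in WT and 9.30, 9.12 and 9.27 in KO MEFs. Its groups overlapped, with a difference of -0.06. Its partner Rrm2, the subunit whose level is known to follow S phase, was at 5.33, 5.26 and 3.68 in WT and at 5.92, 6.34 and 6.02 in KO MEFs. Rrm2 was the only replication member above 0 in this comparison, with all KO arrays above all WT arrays and a difference of 1.34 (SE 0.32, adjusted p = 0.0180). The pairs differed by 0.59, 1.08 and 2.34 at 0, 30 and 90 min, and the WT level at 90 min was below the array median. With that level raised to the median, Rrm2 was at least 2.39-fold higher. All 3 probe sets of Rrm2 were higher in KO MEFs, by 1.34, 0.90 and 0.49.

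The largest difference among the members was that of Ccnb2, the B-type cyclin that partners Cdk1 in mitosis. Ccnb2 was at 5.12, 5.13 and 4.11 in WT and at 8.03, 8.25 and 7.34 in KO MEFs. The difference was 3.09 (SE 0.13, adjusted p = 2.4e-05), or 8.50-fold, with pairs of 2.91, 3.12 and 3.23. Cdk1 itself was at 8.59, 8.11 and 6.89 in WT and 8.19, 8.17 and 7.29 in KO MEFs, overlapping, with a difference of 0.02 (SE 0.18, adjusted p = 0.942). The A-type cyclin Ccna2 did not pass the test either, at 0.23 (SE 0.23, adjusted p = 0.454). Ccnb2 thus differed between genotypes where Cdk1 overlapped.

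Among kinetochore and checkpoint members, the higher ones were Cenpe, a motor that carries chromosomes to the spindle equator, Cenpf, a large coiled-coil protein, and Bub1b. Cenpe was at 5.14, 5.32 and 4.50 in WT and 6.42, 7.06 and 5.56 in KO MEFs, a difference of 1.36 (SE 0.16, adjusted p = 0.00140). Cenpf was at 4.48, 4.24 and 3.97 in WT and 5.32, 6.11 and 4.54 in KO MEFs, a difference of 1.09 (SE 0.25, adjusted p = 0.0165). The groups of Cenpe and of Cenpf did not overlap, although another probe set of Cenpf, below the median on 9 arrays, differed by -0.03. The centromeric histone Cenpa was at 0.16 and the checkpoint kinase Bub1 at 0.08, and neither passed the test. Bub1b, the checkpoint protein BubR1, was at 6.76, 6.45 and 5.86 in WT and between 6.25 and 7.07 in KO MEFs, a difference of 0.42 (SE 0.13, adjusted p = 0.0394).

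Kif20a, a kinesin of the central spindle needed to finish division, was at 5.63, 5.57 and 4.21 in WT and 6.50, 6.87 and 5.82 in KO MEFs. The groups did not overlap, and the difference was 1.26 (SE 0.17, adjusted p = 0.00218), 2.40-fold. Cdc20, which activates the anaphase-promoting complex, was at 7.56, 7.41 and 6.97 in WT and 8.19, 8.34 and 7.85 in KO MEFs, a difference of 0.81 (SE 0.13, adjusted p = 0.00414). Another probe set of Cdc20 was at 7.80, 7.37 and 6.34 in WT and 7.82, 7.92 and 7.39 in KO MEFs, a difference of 0.54. The remaining one was at 5.50, 5.22 and 5.18 in WT and 5.47, 5.75 and 5.65 in KO MEFs, a difference of 0.32. By both of these probe sets the groups overlapped. Kif11, the kinesin that separates the spindle poles, rose by 0.58 (SE 0.13, adjusted p = 0.0144), from 4.62, 4.98 and 3.69 to 5.18, 5.41 and 4.45. Its WT level at 90 min was below the array median, and with it raised the difference was 0.51. The other probe sets of Kif11 differed by 0.17 and 0.47. The first of these was at 4.64 in WT and 4.29 in KO MEFs at 0 min, and its groups overlapped. Ube2c, the conjugating enzyme of the same anaphase complex, and the passenger protein Birc5 did not pass, at 0.57 (adjusted p = 0.0528) and 0.43 (adjusted p = 0.0638). The mitotic kinases Aurka, Aurkb and Plk1 stood at -0.30, -0.34 and 0.26 and did not pass. Tpx2, which activates Aurka, the kinesin Kif23 and the proliferation antigen Mki67 did not pass either, at -0.29, 0.25 and 0.45.

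Top2a, the topoisomerase that untangles replicated chromosomes and is made from S phase into mitosis, went the other way. It was at 9.37, 9.32 and 8.53 in WT and 8.01, 8.21 and 7.77 in KO MEFs, all KO values below all WT values. The difference was -1.08 (SE 0.15, adjusted p = 0.00275), or 2.11-fold lower. Counting arrays alone, by the probe sets used, all KO arrays were above all WT arrays for 1 of 13 replication and 5 of 20 mitosis members (20.5% of all genes). All KO arrays were below all WT arrays for 5 of 13 and 1 of 20 (20.7% of all genes). Of 31 further probe sets of the members with a level above the median on some array, 28 had the sign of the probe set used.

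**Figure D1:**
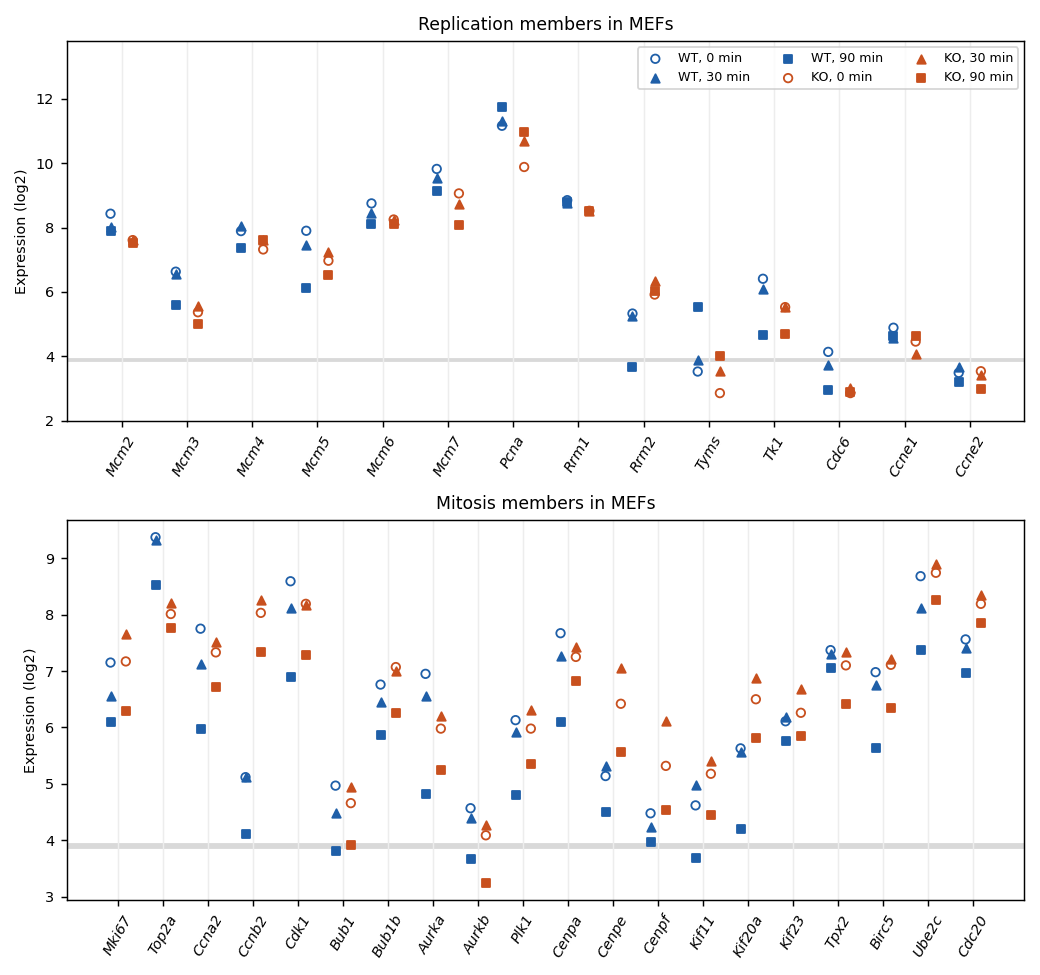
Log2 level of each member on the 6 MEF arrays, WT in blue and KO in orange, with open circles, triangles and squares for 0, 30 and 90 min of serum and a grey band for the range of the array medians. The KO symbols of Ccnb2 (7.34 to 8.25) lie above its WT symbols (4.11 to 5.13), and those of Mcm7 (8.08 to 9.06) below its WT symbols (9.15 to 9.82).

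The calls rested on few arrays. With the arrays of 0, 30 or 90 min left out in turn, 9, 6 and 16 members were called (22.7%, 20.4% and 42.2% of all genes), and 5 kept their call in all of these fits, Mcm7, Top2a, Ccnb2, Cenpe and Kif20a. The other 9 lost it in at least 1 fit, and without the serum term 3 members were called (23.9% of all genes). The lost calls had adjusted p-values of 0.0558 for Pcna, 0.0562 for Cenpf, 0.0916 for Tyms, 0.0924 for Kif11, 0.213 for Mcm2 and 0.141 for Bub1b without 0 min. Without 30 min they were 0.0584 for Mcm3, 0.0909 for Rrm2, 0.0623 for Cenpf, 0.0543 for Tyms, 0.0669 for Kif11, 0.112 for Mcm2, 0.0525 for Cdc20 and 0.213 for Bub1b, and without 90 min 0.0606 for Bub1b. Bub1b also missed the threshold after quantile normalization (adjusted p = 0.0566), and Cenpf with the mean of its probe sets (adjusted p = 0.0543). Within single pairs, 2 members were at least 2-fold higher and 4 lower in KO MEFs at 0 min (8.96% and 8.71% of all genes). With levels below the medians raised, 3 were lower, since Cdc6 was then 1.17-fold lower. At 30 min 6 were higher and 2 lower (8.46% and 9.52%), and at 90 min 4 and 2 (10.1% and 8.41%). The contrast between roles differed between serum times. At 0 min the median KO minus WT difference was -0.76 for replication and 0.04 for mitosis members, at 30 min -0.45 and 0.46, and at 90 min -0.06 and 0.56. The replication members thus lay lowest against WT without serum, and the mitosis members highest after serum, a change over time that was not tested.

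**Figure D2:**
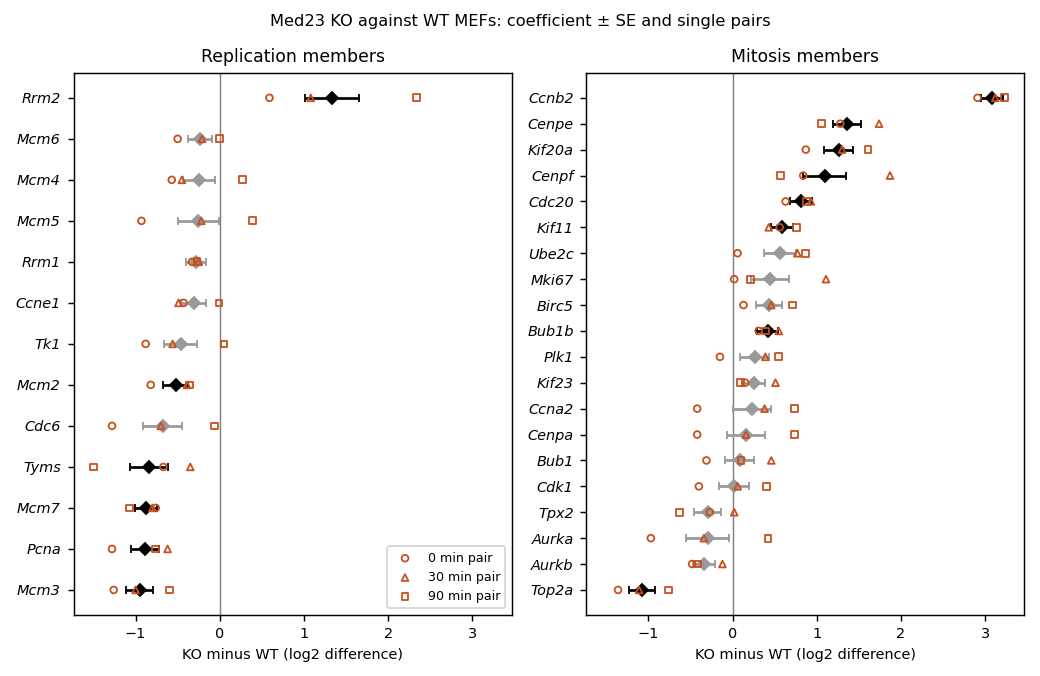
Difference in log2 level, KO minus WT, for the 33 members tested, with diamonds for the limma coefficient, bars for its SE, black for those called, and small open symbols for the single pairs of arrays at 0, 30 and 90 min. Among replication members 12 of 13 diamonds lie below 0, and among mitosis members 16 of 20 lie above 0.

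Other genes of the same pathways, on lists chosen by known function, were counted in the same fit. Of 33 origin and fork genes, 14 fell and 2 rose, with a median of -0.43, among them the licensing factor Cdt1 (-1.88, adjusted p = 0.000657) and its inhibitor Gmnn (-1.53, adjusted p = 0.00313). The genes that rose were the clamp loader subunit Rfc4 (0.62, adjusted p = 0.0394) and the primase subunit Prim1 (0.56, adjusted p = 0.0491). Of 12 nucleotide supply genes, 2 fell, deoxycytidine kinase Dck (-1.43, adjusted p = 0.00761) and Shmt1 (-0.43, adjusted p = 0.0389), and none rose. Of all genes 20.8% fell, so the share that fell was above the background for origin and fork genes but not for nucleotide supply genes.

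Of 17 further kinetochore and checkpoint genes, 3 rose and 3 fell, with a median of 0.05. The largest were Cenpm (0.90, adjusted p = 0.00642) and Spc24 (0.48, adjusted p = 0.0214), and Cenpi (-0.56, adjusted p = 0.0321) and the checkpoint protein Bub3 (-0.55, adjusted p = 0.0174). Of 24 spindle, condensin and cytokinesis genes, 5 rose and 5 fell, with a median of -0.01. Here Cdca3 (1.64, adjusted p = 0.0004) and the hyaluronan-mediated motility receptor Hmmr (0.95, adjusted p = 0.00845) were higher, and the securin Pttg1 (-1.48, adjusted p = 0.000324) and the ring protein anillin, Anln (-0.96, adjusted p = 0.00346), were lower. The medians of both lists were near that of all genes.

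Of 17 E2F, DREAM and FoxM1 regulators, 3 rose and 4 fell, so 7 of 17 were called against 42.1% of all genes, with the E2F partner Tfdp1 at 0.86 (adjusted p = 0.00479) and the repressor E2f6 at 0.81 (adjusted p = 0.0075). The pocket proteins that hold E2F in check divided, with Rbl1 at -1.47 (adjusted p = 0.0019; -1.26 with its level below the median raised) and Rb1 at -1.40 (adjusted p = 0.00135) but Rbl2 at 0.58 (adjusted p = 0.0112). Of 11 Cdk partners and brakes, 3 rose and 1 fell. The phosphatase Cdc25a, which frees Cdk2, stood at 0.70 (adjusted p = 0.0179) and the ubiquitin ligase subunit Skp2 at 0.63 (adjusted p = 0.0137), while Cdc25b, a phosphatase of Cdk1, was at -1.37 (adjusted p = 0.00112).

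Serum for 30 min left the members without a call. None of 33 members passed the limma test against 0 min, where 0.251% of all genes did (0.235% higher and 0.0168% lower), and none had an unadjusted p under 0.05. The 6 alternative fits called 0 members as well. The largest coefficients were those of Tyms (0.52), Pcna (0.49) and Cenpe (0.41), and on the lower side of Ccne1 (-0.35), the cyclin of S phase entry, Mcm7 (-0.31) and Cdk1 (-0.25). For Tyms 3 of the 4 levels were below the array medians, and with these raised its coefficient was -0.045. The genotypes differed in sign, however. In WT MEFs 26 of 33 members were lower at 30 min than at 0 min, with a median change of -0.29 for replication and -0.22 for mitosis members. In KO MEFs 26 of 33 were higher, with medians of 0.16 and 0.23. The change was higher in KO than in WT MEFs for 11 of 13 replication and 19 of 20 mitosis members, against 44.6% of all genes. No member differed by 2-fold or more between these arrays, in WT MEFs (1.63% of all genes higher, 0.310% lower) or in KO MEFs (1.83% and 0.218%). Each of these changes rests on 1 pair of arrays, and the comparisons at 30 and 90 min share the 0 min arrays, so the difference between genotypes was not tested.

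After 90 min of serum the mitosis members were lower in both genotypes. All 20 mitosis members were below their 0 min level in WT and in KO MEFs, with a median coefficient of -0.88, against -0.11 for all genes. The limma test called 15 of 33 members, against 13.5% of all genes, and 11 of the 20 mitosis members fell, against 8.95% of all genes. None rose. Replication members divided, with 2 that fell and 2 that rose of 13 (4.56% of all genes rose) and a median of -0.38.

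Aurka, the kinase of spindle poles, was at 6.95 at 0 min and 4.83 at 90 min in WT MEFs and at 5.98 and 5.25 in KO MEFs. Its coefficient was -1.43 (SE 0.32, adjusted p = 0.0361), with the WT change, -2.12, larger than the KO change, -0.73. Cdk1 went from 8.59 to 6.89 in WT and from 8.19 to 7.29 in KO MEFs, a coefficient of -1.30 (SE 0.22, adjusted p = 0.0177). Ccna2 went from 7.75 to 5.97 and from 7.33 to 6.71, a coefficient of -1.20 (SE 0.28, adjusted p = 0.0418). For these genes both 90 min levels were below both 0 min levels. Birc5, which with Aurkb forms the chromosomal passenger complex, had a coefficient of -1.05 (SE 0.19, adjusted p = 0.0210) and went from 6.98 to 5.64 and from 7.11 to 6.35. Kif20a fell by the same amount (SE 0.21, adjusted p = 0.0272). The others that fell were Plk1, Bub1, Aurkb, Bub1b, Ccnb2 and Kif11, with coefficients from -0.97 to -0.83. For Aurkb both 90 min levels were below the array medians, and with these raised its coefficient was -0.42. Ccnb2 kept its offset between genotypes, since it changed by -1.01 in WT and -0.69 in KO MEFs. With the mean of all probe sets of a gene, Aurka (adjusted p = 0.0695), Bub1 (0.0965), Bub1b (0.0659) and Kif11 (0.0529) did not pass.

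Among replication members, Tk1 had a coefficient of -1.29 (SE 0.24, adjusted p = 0.0233) and went from 6.41 to 4.66 in WT and from 5.53 to 4.71 in KO MEFs. For Mcm7 it was -0.83 (SE 0.16, adjusted p = 0.0260). Tyms and Pcna went the other way. Tyms went from 3.53 to 5.52 in WT and from 2.86 to 4.02 in KO MEFs, a coefficient of 1.58 (SE 0.28, adjusted p = 0.0208). Both 0 min levels were below the array medians, and with these raised the coefficient was 0.85, at least 1.80-fold. The other probe sets of Tyms were below the medians on the MEF arrays. In WT MEFs they went from 3.12 to 3.50, from 3.05 to 3.21 and from 2.91 to 2.90. Pcna went from 11.16 to 11.73 and from 9.88 to 10.97, a coefficient of 0.83 (SE 0.20, adjusted p = 0.0466). Without the filter on low levels, Pcna (adjusted p = 0.0528) and Ccna2 (0.0528) did not pass, and after quantile normalization Pcna did not (adjusted p = 0.0546).

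The changes over 90 min were wider in WT than in KO MEFs. In WT MEFs 16 of 33 members were at least 2-fold lower at 90 min (5.97% of all genes) and 1 was at least 2-fold higher, Tyms (3.74% of all genes). In KO MEFs 0 of 33 were at least 2-fold lower (5.52% of all genes) and 2 at least 2-fold higher, Tyms and Pcna (4.55% of all genes). With levels below the medians raised, 15 members were at least 2-fold lower in WT MEFs, without Cdc6 (1.16-fold), and only Pcna at least 2-fold higher in KO MEFs, with Tyms at 1.08-fold. The medians were -0.63 and 0.00 for replication members and -1.04 and -0.71 for mitosis members in WT and KO MEFs. By the probe sets used, Rrm2 showed the widest gap, with -1.65 in WT and 0.10 in KO MEFs. Its WT level at 90 min was below the median, and with it raised the WT change was -1.41. Another probe set of Rrm2 went from 5.00 to 4.31 in WT and from 5.62 to 5.57 in KO MEFs. The remaining one went from 5.02 to 5.09 and from 5.57 to 5.57, so the gap was not seen with every probe set. The change was higher in KO than in WT MEFs for 11 of 13 replication and 16 of 20 mitosis members, against 54.4% of all genes, and this difference was not tested.

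**Figure D3:**
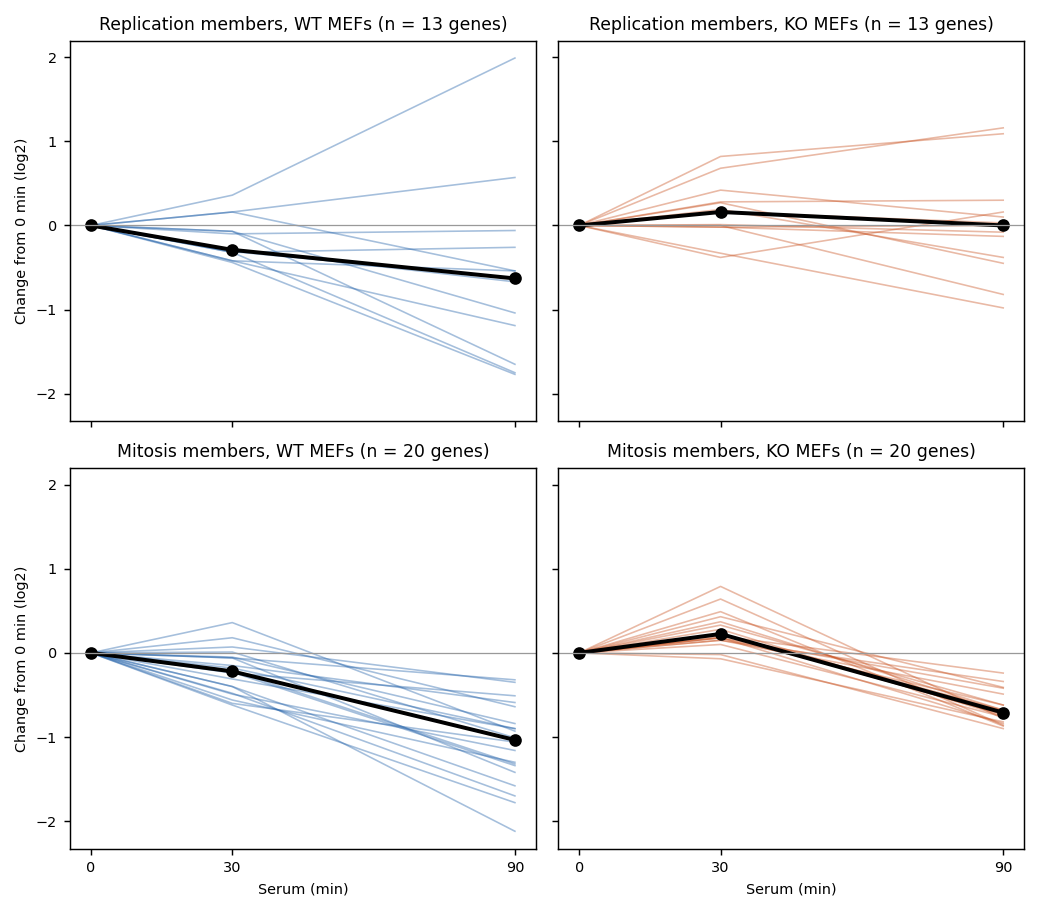
Change in log2 level from 0 min against minutes of serum for the 13 replication and 20 mitosis members tested, with WT in blue and KO in orange, 1 thin line per gene and the median as a thick black line. At 30 min the WT medians lie below 0 (-0.29 and -0.22) and the KO medians above it (0.16 and 0.23), and at 90 min all 20 mitosis lines lie below 0 in both genotypes.

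For mitosis members the median fall was larger after 30 min than before, although in WT MEFs 16 of 20 were already lower at 30 min (median -0.22). From 30 to 90 min the limma test called 10 of 33 members, against 9.91% of all genes, and all 10 fell, 9 of mitosis and Tk1 (8.10% of all genes fell and 1.82% rose). Each of the 20 mitosis members was lower at 90 than at 30 min in both genotypes, with a median of -0.92, against -0.34 for replication members and -0.13 for all genes. The largest coefficients among the members called were those of Kif20a (-1.21, SE 0.21, adjusted p = 0.0262), Cenpe (-1.16, SE 0.20, adjusted p = 0.0264) and Kif11 (-1.13, SE 0.16, adjusted p = 0.0188), followed by Tk1 (-1.13, adjusted p = 0.0406) and Cdk1 (-1.05, adjusted p = 0.0379). Aurka had a lower coefficient, -1.34, that did not pass (adjusted p = 0.0504). Aurkb was among those called, and with its 90 min levels raised to the medians its coefficient was -0.42. With quantile normalization 5 members were called. Between the arrays of 30 and 90 min, 12 members were at least 2-fold lower and 1 higher in WT MEFs (7.35% and 2.04% of all genes), and 6 were lower and 0 higher in KO MEFs (5.47% and 2.15%). With levels below the medians raised, 5 were lower in KO MEFs, since Aurkb was then 1.29-fold lower. Over 0 to 90 min, 8.95% of all genes fell. Of 24 spindle, condensin and cytokinesis genes 11 fell and none rose, with a median of -0.80. Of 33 origin and fork genes 6 fell and 1 rose, with a median of -0.53, and of 17 kinetochore and checkpoint genes 2 fell and none rose, with a median of -0.57.

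In 10T1/2 cells, MAL overexpression came with lower levels of replication genes, none past the threshold. MAL, the actin-binding partner of SRF, carries signals from the cytoskeleton to SRF target genes. The median coefficient was -1.12 for the 13 replication members tested, -0.47 for the 20 mitosis members and -0.03 for all 12440 genes. Tyms, at 2.96 to 3.18, did not pass the filter on low levels. The medians of the single pairs were -1.09 and -0.54 without knockdown and -1.20 and -0.43 with knockdown, for replication and mitosis members. No member passed the limma test over the 4 arrays, where 0.0643% of all genes did (0.0482% higher and 0.0161% lower). That fit has 1 residual degree of freedom. At an unadjusted p under 0.05 it had 20 of 33 members, 19 of them lower, and 3432 of 12440 genes. Other fits called only lower members. They called 11 with the mean of probe sets (5.0% of all genes), 15 after quantile normalization (16.2%), 11 with an intensity trend (4.36%) and 13 with all 10 arrays in 1 model (18.9%), but 0 without the filter or with a stricter one.

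The lowest coefficients were those of Ccne2, Cdc6 and Tk1. Ccne2 was at 6.52 in the control, 4.37 with MAL, 6.28 with knockdown and 3.97 with both treatments. Both MAL arrays were thus more than 2-fold below both arrays without MAL, with a coefficient of -2.23 (SE 0.19, adjusted p = 0.0636). Cdc6 was at 7.72 in the control and 6.31 with MAL, and at 8.11 and 6.30 under knockdown, a coefficient of -1.61 (SE 0.20, adjusted p = 0.0658). Tk1 was at 10.58 and 8.89, and at 10.30 and 8.78 under knockdown, a coefficient of -1.61 (SE 0.19, adjusted p = 0.0651). Over the alternatives these adjusted p-values ran from 3.2e-05 to 0.119 for Ccne2, from 0.000541 to 0.119 for Cdc6 and from 0.000475 to 0.119 for Tk1. The related cyclin gene Ccne1 stood at 8.05 and 6.58, and at 8.46 and 7.02 under knockdown. Rrm2 was at 9.71 and 7.95, and at 10.69 and 9.41 under knockdown.

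The highest coefficients were those of Tpx2 (0.62), Kif23 (0.13) and Rrm1 (0.09), none past the threshold. Both MAL arrays were below both arrays without MAL for 10 of 13 replication and 14 of 20 mitosis members, against 21.1% of all genes, and above them for none (17.3% of all genes). The roles divided in size. At least 2-fold lower with MAL were 8 of 13 replication and 2 of 20 mitosis members without knockdown (4.11% of all genes), and 7 of 13 and 3 of 20 with knockdown (3.72% of all genes). No member was at least 2-fold higher with MAL in either pair (4.31% and 8.41% of all genes). The mitosis members among the lower ones were Aurkb and Birc5, and with knockdown also Cdk1. Aurkb was at 8.40 and 7.03, and at 8.70 and 7.13 under knockdown. The further lists had medians of -0.55 for origin and fork genes, -0.12 for nucleotide supply genes, -0.35 for kinetochore and checkpoint genes, -0.37 for spindle, condensin and cytokinesis genes and -0.40 for Cdk partners and brakes.

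Med23 knockdown in the same cells gave no call by limma, for members or for any gene (0 of 12440). At an unadjusted p under 0.05 there were 10 of 33 members, 9 of them higher, and 3972 genes. The other fits called 1 member with the mean of probe sets (2.9% of all genes), 7 after quantile normalization (19.9%), 3 with an intensity trend (4.82%) and 7 with all 10 arrays (22.6%), all higher, and 0 without the filter or with a stricter one. The medians were 0.19 for replication, 0.20 for mitosis members and -0.08 for all genes, so the medians of the roles were close. Mcm4 was at 8.35 in the control and 9.62 with knockdown, and at 7.20 and 9.13 in cells with MAL, a coefficient of 1.60 (SE 0.24, adjusted p = 0.0689). Kif11 was at 5.07 and 6.13, and at 4.70 and 6.35 with MAL, a coefficient of 1.36 (SE 0.23, adjusted p = 0.0689). Rrm2 had a coefficient of 1.22 (SE 0.21, adjusted p = 0.0699). The lowest were Mcm3 (-0.61), Cenpa (-0.46) and Cdc20 (-0.42).

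Knockdown left 4 members at least 2-fold higher and 0 lower without MAL (6.01% and 1.61% of all genes), and 6 higher and 0 lower with MAL (10.9% and 3.49%). Both knockdown arrays were above both others for Mcm4, Mcm6 and Rrm1 among replication and for Top2a, Kif11, Kif20a, Kif23 and Tpx2 among mitosis members (19.9% of all genes), and below them for Cdc20 (28.4% of all genes). Ccnb2, the member furthest apart in KO MEFs, was at 8.31 in the control and 8.71 with knockdown, and at 8.03 and 7.98 with MAL. The knockdown coefficient of Ccnb2 was 0.18 (SE 0.21, adjusted p = 0.584). A p that misses the threshold does not show that levels were alike.

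**Figure D4:**
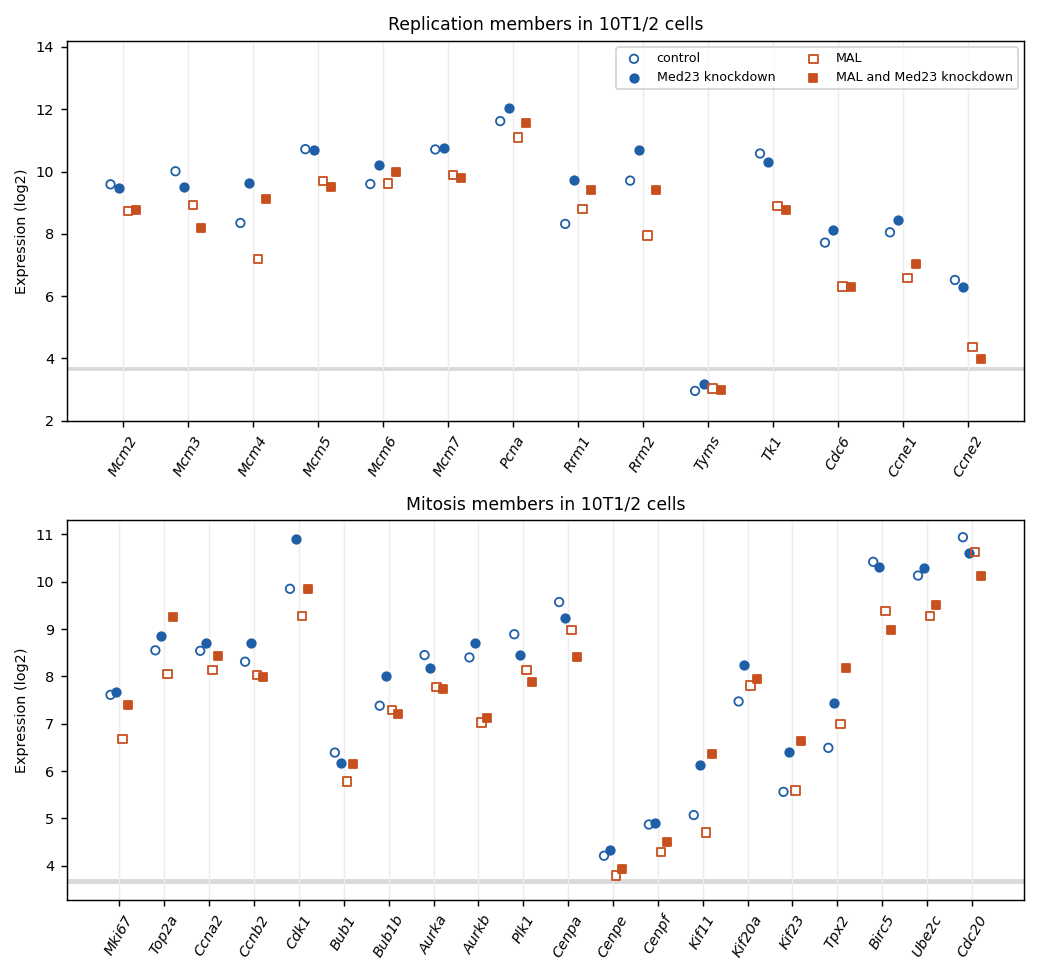
Log2 level of each member on the 4 arrays of 10T1/2 cells, blue circles without MAL, orange squares with MAL, filled symbols for Med23 knockdown, and a grey band for the range of the array medians. The orange squares of Ccne2 (3.97 and 4.37) lie below its blue circles (6.28 and 6.52), while those of Tpx2 (6.99 and 8.18) overlap its circles (6.49 and 7.44).

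Levels of the members were higher in 10T1/2 cells than in the MEFs. In the 10T1/2 control, 19 of 34 members were at least 2-fold above the WT MEFs without serum (24.6% of all genes) and 0 were at least 2-fold below (19.0% of all genes), with median differences of 1.99 for replication, 1.34 for mitosis members and 0.17 for all genes. Against WT MEFs at 90 min, 26 members were at least 2-fold higher and 1 lower (29.5% and 18.7% of all genes), and against KO MEFs at 0 min 22 and 1 (25.6% and 18.8%). All 4 arrays of 10T1/2 cells were above all 6 MEF arrays for 9 of 14 replication and 12 of 20 mitosis members, against 25.8% of all genes. These 9 include Ccne2, which passed the filter on low levels in 10T1/2 cells only. Its 6 MEF levels, 3.67 or less, were below the array medians and are open. With levels below the medians raised, Ccne2 was 2.59 higher in the 10T1/2 control than in WT MEFs without serum. The count at least 2-fold higher in that comparison was still 19. Cdc6 was at 6.30 to 8.11 in 10T1/2 cells and 2.86 to 4.14 in MEFs, and Tk1 at 8.78 to 10.58 and 4.66 to 6.41. Cenpe alone was below all MEF arrays in 10T1/2 cells, at 3.79 to 4.33 against 4.50 to 7.06 (12.7% of all genes). Cell line and culture differ together here, and joint normalization of both lines is not stated, so these are differences between arrays with no test.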

How the data were processed

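The values deposited by the authors were on a log2 scale and covered 45101 probe sets on 10 Affymetrix arrays. The tools RMA and MAS5 are named, per the submitters' processing notes. Their roles, and any joint normalization of both lines, were not given in the sources used here. Precision is limited by the number of arrays.

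Gene names came from the platform annotation, updated by Entrez identifier to RefSeq GRCm38.p6 (34945 probe sets with 1 symbol, 932 with several, 9160 unnamed, 64 controls, 34741 matched). Genes with no level above the overall median (3.90 in MEFs, 3.67 in 10T1/2 cells) were left out of a fit, which kept 11933 and 12440 genes. All 14 replication members except Ccne2 (MEFs) or Tyms (10T1/2 cells) passed, as did all 20 mitosis members measured. limma 3.58.1 (lmFit and eBayes, R 4.3.3) fitted genotype and serum time in MEFs (2 residual degrees of freedom) and MAL and knockdown in 10T1/2 cells (1 residual degree of freedom). The residual also holds any interaction. Two-sided p-values were adjusted over all genes (Benjamini-Hochberg, threshold 0.05), and the fit was tested on simulated data. Differences between single arrays were counted at a log2 difference of 1, with no p-value. Members with full statistics were the 5 largest called coefficients in each direction, or the 3 largest where none was called. Of each further list, the 2 largest called in each direction were named for the knockout. Other genes are given as values chosen after they were seen. The members and lists were chosen with earlier results of these data known.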

Additional observations from a re-analysis of the deposited data

Results flagged for a closer look

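For 7 members, every knockout pair of MEFs lay on one side of 0 and every knockdown pair of 10T1/2 cells on the other. The share of all genes with such opposite signs was not counted, so the 7 cannot be set against a background. Among them, 3 passed the test for the knockout. Pcna was lower in KO than in WT MEFs (-0.89) and higher with knockdown than without in 10T1/2 cells (0.45). Top2a was likewise lower with knockout (-1.08) and higher with knockdown (0.76). Cdc20 was higher with knockout (0.81) and lower with knockdown (-0.42). The others passed neither test. Rrm1 was at -0.28 with knockout and 1.005 with knockdown, Ccne1 at -0.31 and 0.43, Aurkb at -0.34 and 0.20, and Birc5 at 0.43 and -0.26. The 90 min pair of Ccne1 was at -0.01 with knockout. Another probe set differed with knockout by -0.06 for Rrm1, -0.01 for Ccne1 and -0.04 for Aurkb. For Cdc20, another probe set was at 5.50 in WT and 5.47 in KO MEFs at 0 min, so by it not every knockout pair lay on one side. The remaining probe set of Cdc20 was at 7.80 in WT and 7.82 in KO MEFs at 0 min. Both levels of Aurkb at 90 min were below the array medians. The difference between the cell types was not tested. The knockout and the knockdown also differ in how much Med23 RNA remained and in the line.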

How the results depend on the processing

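None of the called values changed sign under the alternatives run. Over the fits that left out 1 serum time, the count of members called for the knockout ran from 6 to 16 (main count 14), and without the serum term it was 3. The median of mitosis minus that of replication members, 0.80 for the knockout, was 0.65 with the stricter filter and ran from 0.60 to 0.90 with 1 serum time left out. For 30 min of serum this difference was 0.09, and it was 0.10 with the mean of probe sets, 0.0725 without the filter, 0.0521 after quantile normalization and 0.0725 without Ccne1 and Ccne2. For 90 against 0 min it was -0.50, and -0.27 with the mean of probe sets. For 90 against 30 min, 5 members were called after quantile normalization in place of 10. For MAL the difference was 0.65, and 0.43 without Ccne1 and Ccne2. MAL called 11 (mean of probe sets), 15 (quantile), 11 (trend) and 13 (all 10 arrays) in place of 0, and knockdown 1, 7, 3 and 7. At 1.5-fold in place of 2-fold, single pairs gave 16, 13 and 16 members for the knockout at 0, 30 and 90 min (35.7%, 35.9% and 37.2% of all genes), and 2 and 4 for 30 min of serum in WT and KO MEFs (8.24% and 6.04%). They gave 25 and 19 for 90 min (26.1% and 24.2%), 22 and 21 from 30 to 90 min (28.3% and 21.1%), 18 and 17 for MAL without and with knockdown (25.9% and 30.5%), and 10 and 9 for knockdown without and with MAL (24.5% and 37.1%). The cause was not tested. The labels carry no replicate numbers, so arrays could not be paired by culture. They were matched only by serum time, genotype or treatment, as a term of the fit.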
